A study of Homo sapiens with 7 samples.

Results

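The genes described here encode the LDB, LMO and SSBP proteins, the adaptors that hold LIM-domain and haematopoietic transcription factors together in 1 complex. They were chosen by name from the deposited count table, as LDB1, LDB2, LMO1, LMO2, LMO3, LMO4, SSBP2, SSBP3 and SSBP4, which are 9 of its 57773 genes. The set was put together because LDB2 had counts in parental libraries and none in edited ones, so the edited against parental values of LDB2 are given as a description with no test. Of the 9 genes, 7 passed the filter on low counts. LDB2 passed it only through the parental libraries, and LMO1 and LMO3 did not pass.

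Gene expression was measured by sequencing of poly-A RNA in K562, an established human chronic myelogenous leukemia line with erythroid features. Edited line 1 and edited line 2 (2 libraries each) carried the substitution Y391K in 2 alleles of the histone demethylase LSD1, and 1 allele was wild type (wtLSD1-GFP). Parental cells (3 libraries) had wild-type LSD1-GFP only, so the GFP tag on LSD1 is shared by all 3 groups and its effect cannot be seen in any comparison. The design asks which transcripts differ in cells with the substitution, which the submitters describe as a gain of function towards histone H3 that is acetylated. Neither separate cultures behind the libraries of a group nor the clonal origin of a line is stated in the labels, so p-values measure the spread between these libraries, which may be technical.

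LDB1 and LDB2 dimerise and bind LIM domains. In erythroid cells LDB1 joins LMO2, the basic helix-loop-helix factor TAL1 with an E-protein partner such as TCF3, and GATA1 on DNA, and self-association of LDB1 brings enhancers and promoters together. LMO proteins consist mainly of LIM domains and link LDB1 to DNA-binding factors, and SSBP proteins bind LDB1 and shield it from degradation. LSD1 works with repressors of the same cells, among them GFI1B and RCOR1.

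Total counts were 37150995 and 40547524 in line 1, 69468590 and 39195148 in line 2, and 35841302, 54666643 and 72577827 in parental cells. A floor of 3 counts lay between 0.0412 and 0.0814 CPM, the count scaled by library size, in a library, a limit that covers counting error only. KDM1A, which encodes LSD1, averaged 290 ± 35.8 CPM in edited cells and 288 ± 56.2 CPM in parental cells (SD, n = 4 and 3). Gene counts do not show which allele a read came from. Parental 3 correlated with parental 1 and 2 at 0.967 and 0.965 across genes, and those 2 with each other at 0.988 (a description, as genes are not independent). All 8 K562 markers had counts, with a summed 3222 to 8899 CPM in edited and 2896 to 5261 CPM in parental libraries. Markers of T cells, B cells and stroma or endothelium summed to at most 7.51 CPM in a library. The T-cell marker CD3D alone reached 7.18 CPM in line 2, and 3 of the 4 listed markers of stroma or endothelium were matched. EPCAM, an epithelial marker, brought the epithelial sum to 69.1 to 125 CPM in edited and 87.6 to 112 CPM in parental libraries. In bulk RNA, fewer cells with a transcript and less of it per cell cannot be told apart.

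The starts of 3 genes are shown. LMO4 and SSBP2 are matched genes that were called between the edited lines, and LMO1 is the member with no counts in any library. Each run is the 250 bases before the first listed start in RefSeq (GRCh38.p14), 5′ to 3′ on the gene's strand, with CG dinucleotides in capitals.
LMO4, chr1:87328630-87328879, plus strand: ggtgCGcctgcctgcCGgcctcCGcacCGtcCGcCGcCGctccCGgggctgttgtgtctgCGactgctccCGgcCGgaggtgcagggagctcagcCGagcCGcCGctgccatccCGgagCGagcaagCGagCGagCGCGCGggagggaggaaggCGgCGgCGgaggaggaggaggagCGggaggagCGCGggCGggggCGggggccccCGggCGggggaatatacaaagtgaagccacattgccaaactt
LMO1, chr11:8268788-8269037, minus strand: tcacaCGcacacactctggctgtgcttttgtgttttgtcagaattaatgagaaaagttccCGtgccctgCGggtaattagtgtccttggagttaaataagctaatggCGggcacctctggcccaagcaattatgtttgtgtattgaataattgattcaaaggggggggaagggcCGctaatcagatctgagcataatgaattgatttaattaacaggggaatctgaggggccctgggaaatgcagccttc
SSBP2, chr5:81751808-81752057, minus strand: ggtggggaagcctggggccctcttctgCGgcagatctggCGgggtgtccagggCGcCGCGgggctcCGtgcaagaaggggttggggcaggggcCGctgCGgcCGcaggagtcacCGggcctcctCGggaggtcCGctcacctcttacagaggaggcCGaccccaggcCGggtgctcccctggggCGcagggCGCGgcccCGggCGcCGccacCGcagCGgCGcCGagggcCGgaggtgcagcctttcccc
The LMO4 start had 31 CG dinucleotides and the SSBP2 start 25, against 5 at the LMO1 start and a median of 11 over the first windows of 27305 genes. LDB1 and SSBP3, both abundant, had 10 and 3 in their first windows, and the other window of SSBP3 had 38. LMO3, which did not pass the filter on low counts, had 1 in its first window and up to 13 in its others. Whether the number of CG dinucleotides follows the level of the genes was not tested. Of the 27305 genes, 89.4% had fewer than LMO4, 78.7% fewer than SSBP2 and 35.0% fewer than LMO1. G and C made up 74.4% of the LMO4 start, 77.2% of that of SSBP2 and 45.6% of that of LMO1. RefSeq starts matched 6 of the 9 genes, in 15 windows of this length, and LDB2, LMO2 and SSBP4 were not matched, so the letters searched next say nothing of them. The core letters that GATA factors bind (AGATAA or TGATAA, with either A or G as the last letter) occurred on neither strand in any of the 15. Over all genes, with the first window of each alone, 22.9% held them. The 15 come from 6 genes, and windows of SSBP2 overlap each other, so the 15 are not a like count to that share. The search says only that these letters are not in these windows.

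LDB2 (ENSG00000169744), the second LDB scaffold, had 0 counts in both line 1 libraries and in both line 2 libraries. The parental libraries had 135, 229 and 125 counts, which were 3.66, 4.11 and 1.90 CPM. The edited and parental libraries therefore did not overlap, as was so for 13% of all tested genes, and parental 3, the deepest library, was the lowest of its group. Against a floor of 3 counts over all 4 edited libraries (0.0158 CPM), LDB2 was at least 204-fold lower in edited than in parental cells, whose mean was 3.22 ± 1.17 CPM (SD, n = 3). The bound was 83.3-fold for line 1 and 120-fold for line 2 alone. Without 1 library it ranged from 125-fold (without line 2 library 1) to 243-fold (without parental 3). An antisense gene across LDB2, AC097515.1, had at most 4 counts.

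LDB1 (ENSG00000198728), the scaffold of the erythroid complex, was abundant everywhere. It had 141 and 167 CPM in line 1, 161 and 196 CPM in line 2, and 167, 164 and 198 CPM in parental cells. The 3 groups overlapped. In FPKM, which are per length and so allow genes to be compared, LDB1 held 100% of the summed LDB level in the 4 edited libraries and 96.2 ± 1.14% in parental cells (SD, n = 3). The LDB level was thus nearly all LDB1 in parental cells too, where LDB2 gave 2.46% to 4.44% of it.

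**Figure D1:**
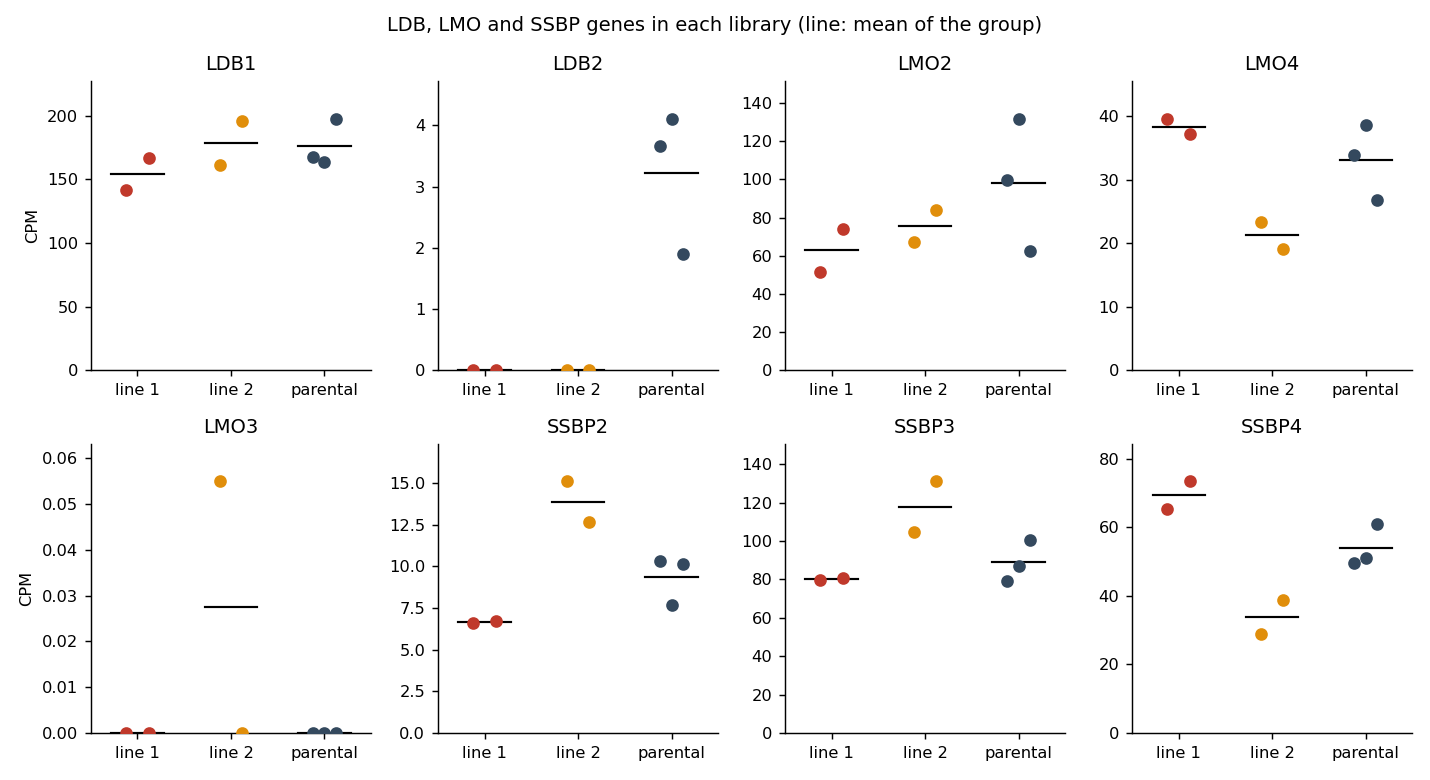
CPM (y axis, linear from 0, its own scale in each panel) of 8 genes in the libraries of edited line 1, edited line 2 and parental cells (points), with the group mean as a horizontal line. LMO1, with 0 counts in every library, is left out; LDB2 was at 0 in 4 of 4 edited libraries, and LMO4 and SSBP4 were lower, and SSBP2 and SSBP3 higher, in both line 2 libraries than in both line 1 libraries.

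Among the LMO genes, LMO2 (ENSG00000135363) was the main transcript. LMO2, the bridge between LDB1 and the TAL1 and GATA1 proteins, had 51.4 and 74.1 CPM in line 1, 67.2 and 83.8 CPM in line 2, and 99.8, 132 and 62.5 CPM in parental cells. Parental 1 and 2 lay above all 4 edited libraries, but parental 3 lay among them. LMO4 (ENSG00000143013), a LIM-only protein found in many tissues, had 39.6 and 37.1 CPM in line 1, 23.3 and 19.2 CPM in line 2, and 33.9, 38.6 and 26.8 CPM in parental cells. Both line 2 libraries were the lowest of the 7. LMO1 (ENSG00000166407), known as a T-cell oncogene, had 0 counts in all 7 libraries, and each library's floor of 3 counts is its limit. LMO3 (ENSG00000048540), known from neuroblastoma, had 4 counts in line 2 library 1 (0.0550 CPM) and 0 in the other 6. The coding gene MGST1 overlaps LMO3 on the opposite strand with up to 2512 counts in a library.

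LMO2 made up 76.5 ± 5.64% of the summed LMO FPKM in line 1, 86.6 ± 3.35% in line 2 and 83.8 ± 2.501% in parental cells (SD, n = 2, 2 and 3). LMO4 made up nearly all of the rest, with 23.5 ± 5.64% in line 1, 13.4 ± 3.32% in line 2 and 16.2 ± 2.501% in parental cells. Both line 1 libraries had a higher LMO4 share than all other libraries, at 19.5% and 27.5%, against 11.05% and 15.7% in line 2 and 14.3% to 19.01% in parental cells. The nearest values, 19.5% in line 1 and 19.01% in parental cells, lay close together.

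The SSBP proteins, which stabilise LDB1, were all expressed, and their mix differed between the edited lines. SSBP2 (ENSG00000145687) had 6.60 and 6.75 CPM in line 1, 15.1 and 12.7 CPM in line 2, and 10.3, 7.70 and 10.1 CPM in parental cells. Line 1 lay below and line 2 above every parental library. SSBP4 (ENSG00000130511) showed the opposite order, with 65.3 and 73.4 CPM in line 1, 28.9 and 38.9 CPM in line 2, and 49.5, 51.1 and 60.9 CPM in parental cells. Again no library of 1 group overlapped those of another. With so few libraries this is common, as 31.5% of all tested genes did not overlap between line 1 and parental cells, 39.4% between line 2 and parental cells and 51.7% between the lines. SSBP3 (ENSG00000157216) had 80.0 and 81.0 CPM in line 1, 105 and 131 CPM in line 2, and 79.4, 87.3 and 101 CPM in parental cells. Both line 2 libraries were the highest, and line 1 lay within the parental range.

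SSBP3 made up most of the summed SSBP FPKM, at 64.0 ± 2.36% in line 1, 74.7 ± 2.13% in line 2 and 67.6 ± 5.12% in parental cells (SD, n = 2, 2 and 3). SSBP4 followed with 31.3 ± 1.42% in line 1, 15.9% in both line 2 libraries and 26.0 ± 3.55% in parental cells. SSBP2 had the smallest share, 4.71 ± 0.943% in line 1, 9.34 ± 2.13% in line 2 and 6.39 ± 1.66% in parental cells. The SSBP4 share did not overlap between the 3 groups, with 30.3% to 32.3% in line 1 and 21.9% to 28.5% in parental cells. MRPL37 overlaps SSBP3, and ISYNA1 overlaps SSBP4, on the opposite strand. How the authors' counting treated strand is not stated in any source used here, so how reads of these overlaps were counted is not known.

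**Figure D2:**
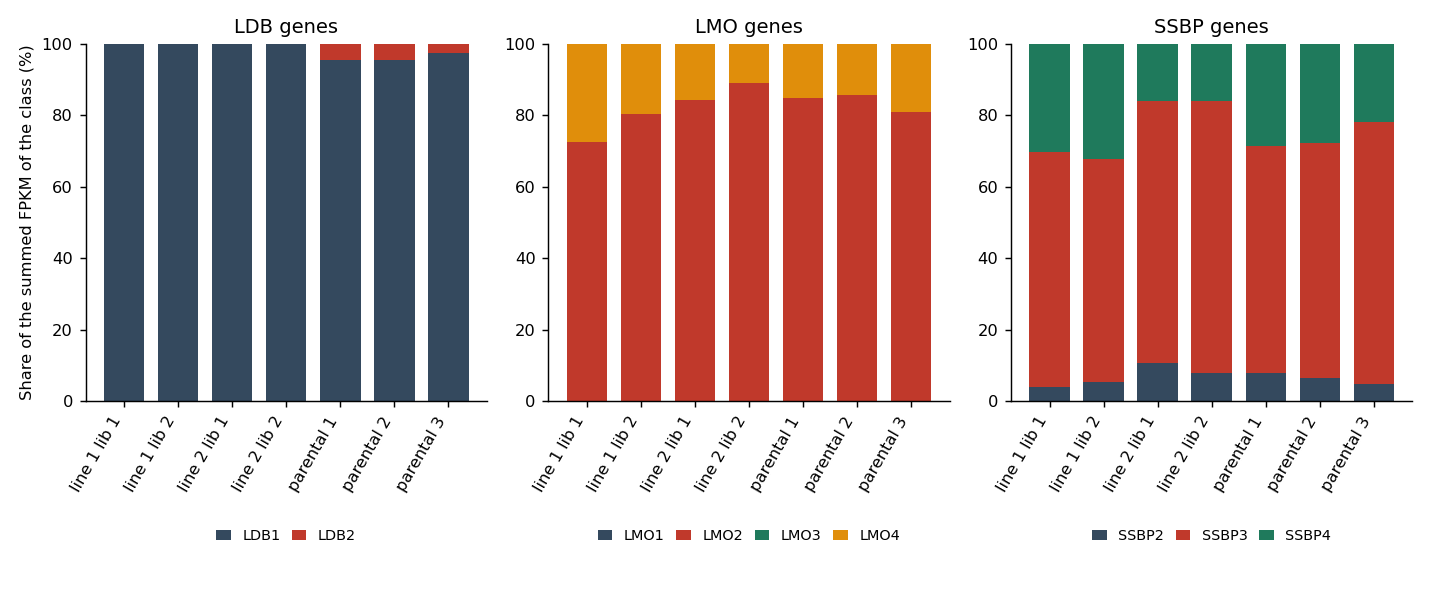
Share of each gene (%, y axis from 0 to 100) in the summed FPKM of its class, for the LDB, LMO and SSBP genes, with 1 bar per library. LDB2 appears in the 3 parental bars alone, and the SSBP4 share was 15.9% in both line 2 libraries, against 30.3% and 32.3% in line 1 and 21.9% to 28.5% in parental cells.

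Per length, LDB1 led in every group, with a mean of 25.4 FPKM in line 1, 30.0 FPKM in line 2 and 29.04 FPKM in parental cells. SSBP3 (21.4, 28.6 and 22.2 FPKM in line 1, line 2 and parental cells) and LMO2 (18.6, 21.7 and 25.7 FPKM) were next, and their ranges overlapped in each group. LDB1 overlapped its next neighbour in line 2 and in parental cells, and in line 1 it did not. SSBP4 came after these 3, at 10.4 FPKM in line 1, 6.07 FPKM in line 2 and 8.53 FPKM in parental cells. LMO4 came before SSBP2 in line 1 (5.48 and 1.56 FPKM) and in parental cells (4.78 and 2.09 FPKM). In line 2 that order was turned round, with SSBP2 at 3.39 and 3.57 FPKM in its 2 libraries and LMO4 at 3.23 and 3.25 FPKM.

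Edited against parental cells as a whole, the other 6 expressed genes showed no called difference in edgeR's quasi-likelihood test, at a Benjamini-Hochberg adjusted p under 0.05, the threshold used throughout. This test called 0.182% of 18160 genes in that comparison. No gene of the 6 had an unadjusted p under 0.05, and DESeq2 and limma-voom called 0 as well. The nearest was LMO2, with a log2 fold change of -0.50 (SE 0.25, adjusted p = 0.467) and a 95% interval from -1.07 to 0.065. In the authors' deposited Wald tests the LMO2 change was -0.49 without shrinkage of fold changes (adjusted p = 0.503) and -0.42 with it (adjusted p = 0.513). LDB1 was at -0.09 (95% interval -0.40 to 0.23). The intervals were wider for SSBP2 (-0.61 to 0.88) and SSBP4 (-0.74 to 0.62), whose edited libraries lay on both sides of the parental ones.

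Line 1 against parental cells also gave 0 calls among the 6 genes, where 1.75% of all genes were called. None had an unadjusted p under 0.05, and DESeq2 and limma-voom called 0. Values for LMO2, SSBP2 and SSBP4 were -0.64 (SE 0.30, adjusted p = 0.393), -0.49 (SE 0.23, adjusted p = 0.394) and 0.36 (SE 0.17, adjusted p = 0.398) on the log2 scale. For SSBP2 and SSBP4, 2 of the 6 genes, the libraries of line 1 and parental cells did not overlap, beside 31.5% of all tested genes.

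Line 2 against the same parental libraries gave 0 calls, where 5.82% of all genes were called. The share of all genes with an unadjusted p under 0.05 is not given here, so that count among the members is a description only. It was 4 of the 6 genes. These were SSBP4 at -0.67 (SE 0.17, adjusted p = 0.0593), LMO4 at -0.64 (SE 0.19, adjusted p = 0.0908), SSBP3 at 0.40 (SE 0.15, adjusted p = 0.170) and SSBP2 at 0.57 (SE 0.22, adjusted p = 0.173). For these 4 genes the libraries of line 2 and parental cells did not overlap, beside 39.4% of all tested genes. DESeq2 called 2 of the 6 and limma-voom 0. Without parental 3, edgeR called LMO4, at -0.76. As line 1 and line 2 were set against the same parental libraries, their values are set side by side and not counted as independent.

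The lines differed from each other in 3 of the 6 genes, with 1 higher and 2 lower in line 2, where 6.54% of all genes were called (2.33% higher and 4.21% lower). SSBP2 rose in line 2 relative to line 1, by a log2 fold change of 1.06 (SE 0.25, adjusted p = 0.0373). SSBP4 fell by 1.03 on the log2 scale (SE 0.19, adjusted p = 0.0144), and LMO4 fell by 0.85 (SE 0.21, adjusted p = 0.0435). For these 3 genes and for SSBP3, which was not called, the libraries of the lines did not overlap, beside 51.7% of all tested genes. SSBP3 was at 0.55 (SE 0.17, adjusted p = 0.104), LMO2 at 0.27 (95% interval -0.45 to 0.98) and LDB1 at 0.21 (95% interval -0.18 to 0.60). DESeq2 called 3 of the 6 and limma-voom 2.

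With 2 libraries per line these calls were near the limit of the design. LMO4 (-0.72 to -1.001) and SSBP2 (0.93 to 1.17) were no longer called when any 1 of the 4 line libraries, or parental 1, was left out. SSBP4 was no longer called without line 1 library 1 (-1.12), line 1 library 2 (-0.94) or line 2 library 1 (-0.83), and was called without line 2 library 2 (-1.27) or any parental library. SSBP3 was called without parental 3, at 0.54. With limma on log2(FPKM + 1), LMO4 (-0.61), SSBP2 (0.81) and SSBP4 (-0.70) were not called, nor on log2(FPKM + 0.1), and LMO4 was also not called with upper quartile scaling or limma-voom (adjusted p = 0.0579 and 0.0573).

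**Figure D3:**
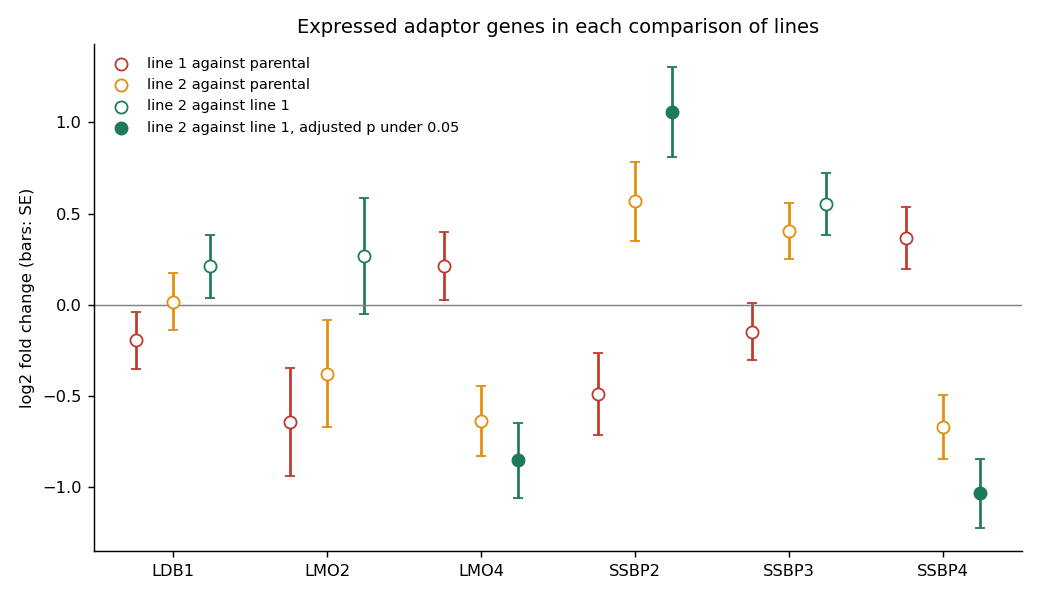
Log2 fold change (y axis) of the 6 tested genes for line 1 against parental, line 2 against parental and line 2 against line 1, with SE as bars and filled points for an adjusted p under 0.05. The filled points are LMO4 (-0.85), SSBP2 (1.06) and SSBP4 (-1.03) in line 2 against line 1; the first 2 comparisons share the parental libraries.

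Across the 7 libraries, LMO4 and SSBP3 varied oppositely, with a Pearson r of -0.95 of their log2 CPM. SSBP2 and SSBP4 had an r of -0.89, LMO4 and SSBP2 -0.88, and SSBP2 and SSBP3 0.74. These are descriptions over 7 libraries in 3 groups, and the differences between the lines are part of them.

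The genes beside LDB2 on chromosome 4 did not share its pattern. In GENCODE order they are FGFBP2, PROM1 and TAPT1 on 1 side and QDPR, CLRN2 and LAP3 on the other. TAPT1 averaged 33.9 ± 1.97 CPM in edited cells and 33.2 ± 2.01 CPM in parental cells (SD, n = 4 and 3), a log2 fold change of 0.029 (95% interval -0.24 to 0.30). QDPR, a pteridine reductase, averaged 20.8 ± 5.31 CPM in edited and 15.8 ± 1.58 CPM in parental cells, and LAP3, a leucine aminopeptidase, 82.3 ± 14.2 CPM in edited and 80.4 ± 3.69 CPM in parental cells. Of these 3 tested neighbours, 0 were called in any of the 4 comparisons, and only QDPR in line 2 against parental cells (0.59) had an unadjusted p under 0.05, at 0.0227. DESeq2 and limma-voom called 0. PROM1 had at most 8 counts in a library, and FGFBP2 and CLRN2 had 0.

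Most coding genes beside SSBP4 were, like it, lower in line 2. SSBP4 itself was not called there against parental cells by edgeR (-0.67, adjusted p = 0.0593), and was at 0.36 in line 1. Its neighbours on chromosome 19 are PGPEP1, GDF15 and LRRC25 on 1 side and ISYNA1, ELL and FKBP8 on the other. Against parental cells, 4 of these 6 fell in line 2 by edgeR with Benjamini-Hochberg adjustment, where 4.48% of all genes were called lower. These neighbours were named after their values were seen. PGPEP1, a peptidase, was at 53.0 to 57.7 CPM in line 2 and 103 to 115 CPM in parental cells (log2 fold change -0.997, adjusted p = 0.00333). ISYNA1, an inositol phosphate synthase, was at -0.87 (adjusted p = 0.0134), ELL, an elongation factor, at -0.84 (adjusted p = 0.0176) and FKBP8, a mitochondrial immunophilin, at -0.84 (adjusted p = 0.0204). GDF15 was at -2.05 against parental cells and -2.19 against line 1, and was not called. LRRC25, at most 0.819 CPM in a library, was at -0.038 in line 2 and -2.34 in line 1 against parental cells. In line 2 against line 1 LRRC25 was at 2.31, opposite to SSBP4, and it was not called in these comparisons. Against line 1, PGPEP1 (-1.004), ELL (-0.75) and FKBP8 (-0.74) fell in line 2, with adjusted p of 0.00414, 0.0353 and 0.0429. There 4.21% of all genes were called lower. Without line 2 library 1 the only 1 of the 4 still called against parental cells was PGPEP1 (-1.06), and without line 2 library 2 none was (-0.94 for PGPEP1). ELL was also lost there without parental 1 (-0.87). Against line 1, PGPEP1 was called whichever library was left out, while ELL and FKBP8 were not called without any 1 of the line libraries or without parental 1 (-0.67 to -0.84), nor FKBP8 without parental 2 (-0.74).

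In a wider window, chosen after these values were seen, 20 of the 50 tested coding genes around SSBP4 were called lower in line 2 than in parental cells (40.0%), with 0 higher and a median log2 fold change of -0.82. Over all genes 4.48% were called lower. Line 2 against line 1 likewise had 20 of 50 lower and 0 higher (median -0.79), where 4.21% of all genes were called lower. Line 1 against parental cells had 1 lower, 0 higher and a median of 0.012, where 1.75% of all genes were called in either direction. Without line 2 library 1 or library 2, 3 and 1 of the 50 were called against parental cells, and without parental 1 there were 12. Against line 1 the 20 became 10 without parental 1, and 2 to 5 without a line library. With limma on log2(FPKM + 1) and log2(FPKM + 0.1) they became 0 and 3 against parental cells, and 1 and 3 against line 1. On the whole of chromosome 19, 15.2% of 1201 tested genes were called lower in line 2 than in parental cells. Beside LMO4, 5 of the 6 nearest coding genes were tested and CCBL2 was called. CCBL2 fell in line 2, with a log2 fold change of -1.09 against parental cells (adjusted p = 0.0109) and -0.90 against line 1 (adjusted p = 0.0318). The call against parental cells was lost without line 2 library 1 (-0.86), and the call against line 1 was kept only without parental 3 (-0.91) or line 2 library 2 (-1.18). Around SSBP2 and LMO4, 0 and 4 of 50 tested coding genes were called lower, and 1 and 0 higher, in line 2 than in line 1. Over all genes 4.21% were called lower and 2.33% higher in that comparison. DNA copy number was not measured here, and its part in the SSBP4 difference was not tested.

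**Figure D4:**
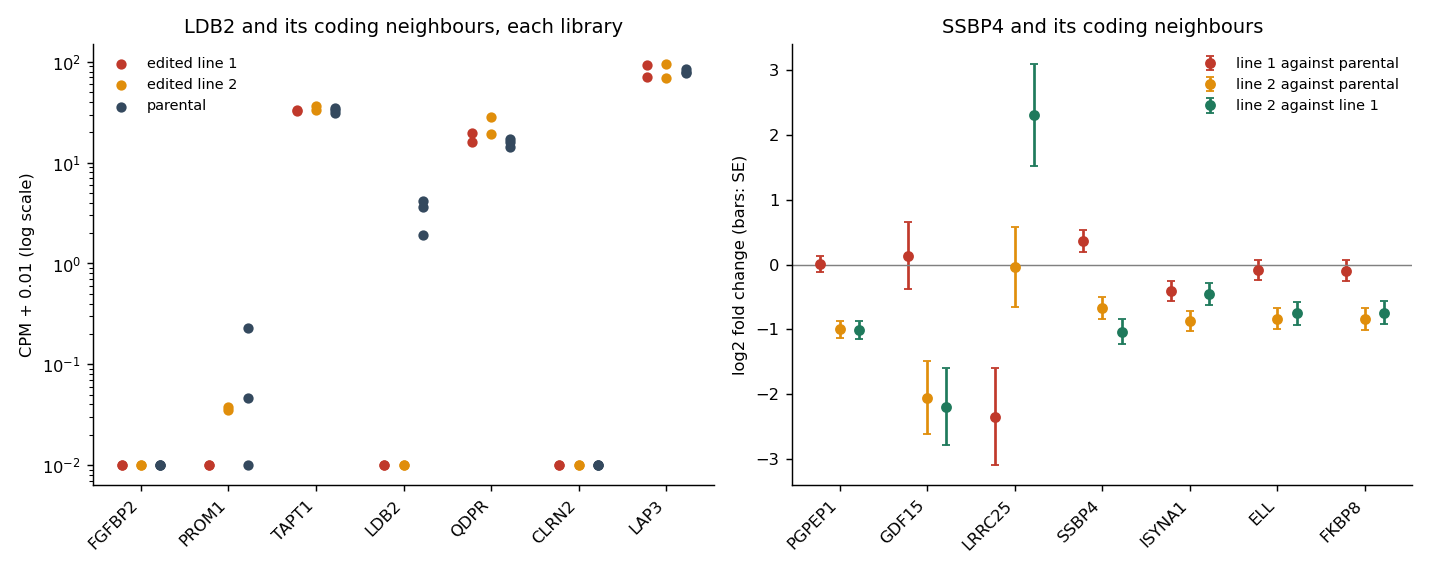
Left, CPM plus 0.01 (log scale) of LDB2 and its 3 coding neighbours on each side in every library. Right, log2 fold changes with SE as bars for SSBP4 and its coding neighbours. PGPEP1, ELL and FKBP8 lay between -0.74 and -1.004 in both line 2 comparisons, and between -0.096 and 0.0072 in line 1 against parental cells. Against parental cells, line 1 and line 2 were at -0.41 and -0.87 for ISYNA1, 0.14 and -2.05 for GDF15, and -2.34 and -0.038 for LRRC25.

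Genes with a pattern most like that of LDB2 were found by Pearson correlation of log2 CPM over the 7 libraries, among 12228 genes with a mean of at least 2 CPM in parental cells. They were MAGEB10, a cancer-testis gene (r = 0.998), TMEM123 (0.992), ARHGAP15 (0.992), HIST3H2A, a histone gene (0.992), and FER, a tyrosine kinase (0.992). Only MAGEB10 was at 0 in all 4 edited libraries like LDB2, and it averaged 2.03 ± 0.518 CPM in parental cells (SD, n = 3). ARHGAP15 had 6 counts in all in edited cells and 12.6 ± 4.11 CPM in parental cells. FER averaged 18.2 ± 1.32 CPM in edited and 43.4 ± 4.69 CPM in parental cells, HIST3H2A 50.6 ± 1.77 CPM in edited and 76.3 ± 3.21 CPM in parental cells, and TMEM123 110 ± 0.510 CPM in edited and 129 ± 1.43 CPM in parental cells. The choice of genes by likeness fixes these differences, so they were not tested.

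Partners of the adaptors in the erythroid complex gave a few calls in the comparisons with line 2. Of 21 listed partners 19 were tested, and edgeR called 0 in edited against parental cells and 0 in line 1 against parental cells, with 5 at an unadjusted p under 0.05 in each. DESeq2 called 1 in each of those comparisons and limma-voom 0. The share of all genes at that unadjusted cut is not given here, so the 5 are a description only. In line 2, 2 partners rose and 2 fell against parental cells, where 1.34% of all genes were called higher and 4.48% lower, and 2 rose and 2 fell against line 1, where 2.33% were called higher and 4.21% lower. The median log2 fold changes of the 19 were -0.05, -0.13, -0.08 and -0.09 in edited against parental, line 1 against parental, line 2 against parental and line 2 against line 1, beside medians within 0.01 of 0 over all tested genes. TAL1 and GATA1, the DNA-binding core, were not called in any comparison. TAL1 averaged 141 ± 7.46 CPM in line 1, 164 ± 18.5 CPM in line 2 and 146 ± 17.0 CPM in parental cells (SD, n = 2, 2 and 3), and GATA1 116 ± 8.70 CPM in line 1, 129 ± 5.76 CPM in line 2 and 136 ± 7.71 CPM in parental cells.

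ZFPM1 (FOG1), the cofactor of GATA1, had 27.1 and 39.3 CPM in line 1, 91.2 and 79.9 CPM in line 2, and 32.5, 49.8 and 26.4 CPM in parental cells. It rose in line 2 by a log2 fold change of 1.24 against parental cells (SE 0.26, adjusted p = 0.0270) and 1.37 against line 1 (SE 0.30, adjusted p = 0.0293). CBFA2T3 (ETO2), a corepressor bound by the TAL1 complex, had 121 and 114 CPM in line 1, 209 and 171 CPM in line 2, and 147, 170 and 147 CPM in parental cells, and rose in line 2 against line 1 by 0.69 (SE 0.16, adjusted p = 0.0350). GATA2, the GATA factor of progenitors, had 323 and 332 CPM in line 1, 184 and 205 CPM in line 2, and 243, 262 and 264 CPM in parental cells. It fell in line 2 against line 1, by 0.75 on the log2 scale (SE 0.14, adjusted p = 0.0163). For GATA2 and CBFA2T3 no library of 1 group overlapped those of another, and the parental libraries lay between the lines. Of all tested genes, 31.5% did not overlap between line 1 and parental cells, 39.4% between line 2 and parental cells and 51.7% between the lines. GATA2 was at 0.35 in line 1 and -0.40 in line 2 against parental cells, and CBFA2T3 at -0.40 in line 1 and 0.29 in line 2, with none of these called.

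TCF3, an E protein that pairs with TAL1, had 183 and 220 CPM in line 1, 109 and 133 CPM in line 2, and 200, 189 and 230 CPM in parental cells. It fell in line 2 by 0.78 on the log2 scale against parental cells (SE 0.16, adjusted p = 0.0251) and by 0.74 against line 1 (SE 0.17, adjusted p = 0.0391). LYL1, a relative of TAL1, had 249 and 189 CPM in line 1, 173 and 157 CPM in line 2, and 274, 271 and 278 CPM in parental cells. All 4 edited libraries lay below the parental ones, and 13% of all tested genes did not overlap between edited and parental cells. LYL1 fell in line 2 by 0.73 on the log2 scale against parental cells (SE 0.15, adjusted p = 0.0256). TCF3 and LYL1 lie on chromosome 19, as SSBP4 does. ID1, an inhibitor that binds E proteins, had 14.1 and 19.1 CPM in line 1, 16.6 and 24.3 CPM in line 2, and 8.95, 9.49 and 5.58 CPM in parental cells, and rose in line 2 against parental cells by 1.35 (SE 0.28, adjusted p = 0.0255). Line 1 was at 1.05 for ID1 (adjusted p = 0.125). Without line 2 library 1 or library 2, 0 of the 19 partners were called in either line 2 comparison. Without parental 1, 0 were called in line 2 against parental cells and 2 against line 1, and without a line 1 library 0 were called against line 1. Without parental 2, LYL1 was not called (-0.74, adjusted p = 0.0649), nor was TCF3 against line 1 (-0.74, adjusted p = 0.0571). With limma on log2(FPKM + 1) or log2(FPKM + 0.1), 0 of the 19 were called in either line 2 comparison.

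**Figure D5:**
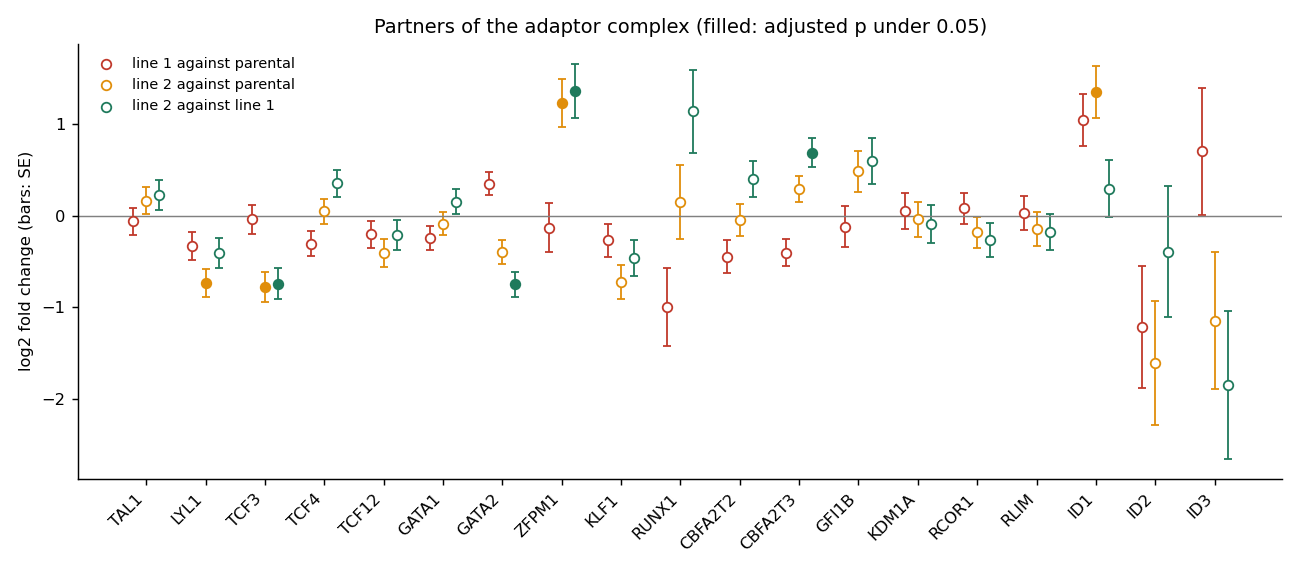
Log2 fold change (y axis) of the 19 tested partners for line 1 against parental, line 2 against parental and line 2 against line 1, with SE as bars and filled points for an adjusted p under 0.05. ZFPM1 (1.24 and 1.37) and TCF3 (-0.78 and -0.74) are filled in both line 2 comparisons, and no point of line 1 against parental is filled.

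The LIM-homeodomain factors, which bind LDB1 in other tissues, mostly did not pass the filter on low counts. Of 12, 2 passed it, ISL2 (24.5 and 27.0 CPM in line 1, 21.5 and 17.7 CPM in line 2, 21.1 to 22.5 CPM in parental cells) and LHX6 (6.47 to 8.56 CPM in edited and 6.41 to 7.61 CPM in parental libraries). Neither was called in any comparison, neither had an unadjusted p under 0.05, and DESeq2 and limma-voom called 0.

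All 20 listed erythroid targets of the complex were tested, and few were called. In edited against parental cells edgeR called 0, with 5 at an unadjusted p under 0.05 and 0 called by DESeq2 or limma-voom, and a median log2 fold change of 0.23. In line 2 against parental cells it called 0 as well, with 4 at an unadjusted p under 0.05, 2 called by DESeq2 and 0 by limma-voom, and a median of -0.26. In line 1 against parental cells edgeR called 1 of the 20 (median 0.19), beside 1.75% of all genes called by edgeR. There 9 had an unadjusted p under 0.05, DESeq2 called 6 and limma-voom 0. In line 2 against line 1, edgeR called SLC4A1 higher and GATA2 lower (median -0.11), which is 2 of 20 beside 6.54% of all genes called by edgeR. There 10 had an unadjusted p under 0.05, DESeq2 called 5 and limma-voom 2. Those shares are of edgeR calls and are not the background of the other counts. For an unadjusted p under 0.05 no share of all genes is given here, so these counts are descriptions only. DESeq2 calls over the whole table are given in the section on processing. SLC4A1, the band 3 anion exchanger of red cells, had 0.162 and 0.247 CPM in line 1, 6.72 and 5.62 CPM in line 2, and 1.00, 1.79 and 3.99 CPM in parental cells. It fell by 3.46 on the log2 scale in line 1 against parental cells (SE 0.66, adjusted p = 0.0404) and was higher in line 2 than in line 1 by 4.89 (SE 0.71, adjusted p = 0.00505). Line 1 had 16 counts of SLC4A1 in all. The call against parental cells was lost without parental 2, or without any 1 of the 4 line libraries (-3.20 to -3.81), and the call against line 1 without line 1 library 1 (4.63). The call against parental cells was also lost with limma-voom (-3.28, adjusted p = 0.176), and both calls were lost with limma on log2(FPKM + 1) and log2(FPKM + 0.1), at -0.33 and -1.62 for line 1 against parental cells and 0.83 and 2.915 for line 2 against line 1.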

How the data were processed

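Poly-A RNA of 7 K562 libraries was sequenced over 150 cycles from RNA with an integrity number above 8.9, per the labels' protocols. The submitters' processing notes name STAR 2.7.3a, HTSeq 0.11.2, Cufflinks 2.2.1, DESeq2, cutadapt 2.5 and Bowtie2 2.5.1, and the builds GRCh37 and hg19; their settings are not stated in any source used here. The authors deposited raw counts of reads for each gene, normalized counts (a signal, not used for tests) and FPKM. Per the file headers, their comparison tables give the log2 fold change and its standard error, the Wald statistic (a score) and the p-value, raw and adjusted.

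The test on counts was edgeR 4.0.16 (R 4.3.3) on 18160 genes kept by filterByExpr over the 2 genotypes, with TMM scaling, glmQLFit and glmQLFTest, and Benjamini-Hochberg adjustment at 0.05 over all genes. Edited against parental cells was fitted as 2 groups, and the comparisons by line as 3 groups in 1 fit. Intervals of 95% use the SE and the t quantile at the test's degrees of freedom. CPM uses TMM-scaled totals. Correlations use log2 CPM with a prior count of 2. No library was dropped or imputed, and libraries of a group differed by more than sampling noise. The steps were tested on simulated counts.

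The members, lists and comparisons were chosen with earlier results of these data known. Named were all 9 members, 3 coding genes each side of LDB2, the 5 genes most like LDB2, KDM1A, and of each list the called genes, up to 6. Neighbours of the other members, TAL1 and GATA1 were named after their values were seen. Gene order and chromosomes came from GENCODE 29, on a later build, and promoters from RefSeq. Alternatives were DESeq2 1.42.0 size factors, no filter, upper quartile scaling, a filter at a mean of 2 CPM or over 3 groups, the DESeq2 Wald test, voom in limma 3.58.1, a 3-group fit, limma on log2(FPKM + 1) or log2(FPKM + 0.1), the replicate number as a block, class shares from counts, and each library left out.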

Additional observations from a re-analysis of the deposited data

Results flagged for a closer look

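For 3 genes the 2 edited lines, which carry the same label of genotype, differed from each other in edgeR's quasi-likelihood test (adjusted p under 0.05). The log2 fold change of line 2 over line 1 was -0.85 for LMO4, 1.06 for SSBP2 and -1.03 for SSBP4. In line 2 against parental cells these genes were at -0.64, 0.57 and -0.67, and in line 1 against parental cells at 0.21, -0.49 and 0.36, with the same parental libraries in both. The cause of the difference between the lines was not tested.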

How the results depend on the processing

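With 2 libraries per line, the calls of single genes depended on each library. In line 2 against line 1 the members called, 3 with all libraries, ranged from 0 to 4 when 1 library was left out, and were 0 with limma on log2(FPKM + 1) and 0 on log2(FPKM + 0.1). In line 2 against parental cells, 0 became 1 with upper quartile scaling, 2 with no filter, 1 with a mean of at least 2 CPM, 2 with DESeq2, and 0 to 1 when a library was left out. In line 1 against parental cells 0 became 1 with no filter. Edited against parental cells had 0 under every setting run.

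Some small log2 fold changes turned sign when 1 library was left out. In edited against parental cells the ranges were -0.18 to 0.023 for LDB1 (above 0 without parental 3), -0.32 to 0.0076 for LMO4 (above 0 without line 2 library 2), -0.11 to 0.30 for SSBP2 (below 0 without line 2 library 1), -0.014 to 0.27 for SSBP3 (below 0 without line 2 library 2) and -0.28 to 0.14 for SSBP4 (above 0 without parental 3 or either line 2 library). In line 2 against parental cells LDB1 ranged from -0.14 to 0.15 (below 0 without parental 1, parental 2 or line 2 library 2). The cause was not tested.

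From counts in place of FPKM, LDB1 made up 98.2% of its class in parental cells, LMO2 61.6%, 77.8% and 74.0% and SSBP3 51.5%, 71.1% and 58.5% in line 1, line 2 and parental cells. That change comes from leaving out gene length.

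Genes called over the whole table were 33, 318, 1057 and 1188 in edited against parental, line 1 against parental, line 2 against parental and line 2 against line 1. With no filter they were 234, 1167, 2477 and 2158, with DESeq2 464, 899, 2032 and 1900, with log2(FPKM + 1) 8, 23, 196 and 209, and with log2(FPKM + 0.1) 12, 53, 258 and 272. When 1 library was left out they ranged from 2 to 32, 44 to 931, 259 to 1848 and 327 to 2344. Limma-voom called 202 in line 1 against parental cells, and the 3-group fit 619 in edited against parental cells.

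The replicate numbers shared by the groups do not state a pairing, and deviations of same-numbered libraries correlated at -0.10 to 0.30. With the number as a replicate block, which leaves parental 3 without a partner, the members called were 2 in line 1 against parental cells and 5 in line 2 against parental cells, SSBP4 was at 0.030 in edited against parental cells, and the counts over all genes were 7, 2272, 3887 and 3568. The filter over 3 groups and the LDB2 alternatives were chosen after seeing the data; the bound for LDB2 was 202-fold with DESeq2 size factors.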
